A study of Mus musculus with 6 samples.

Results

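Of 49 genes listed as markers of macrophages and other myeloid cells, 42 had a tested row among the 11478 tested genes of the pancreas data (12016 rows in all), and these 42 are described here. The list was drawn up by gene name, with earlier results of these data known, so the counts below describe it and are no independent test. By role it held 13 tested complement and resident macrophage markers of 15 listed, 25 general myeloid markers of 28, and 4 chemokines of 6 chemokines and receptors. Mertk, Gpnmb, Tlr2, Rac2, Csf2rb, Cx3cr1 and Ccr2 had no tested row under those names and were not analysed here. RNA came from the pancreas of 6 untreated male mice aged 3 weeks, 3 wild type and 3 OCaR1-/-, called the knockout from here on. The strain of the wild-type mice is written C57Bl6/N in the extraction protocol, and the strain field of all 6 samples has C56Bl6/N; the genotype field spells the knockout OCar1-/-. OCaR1 is the protein encoded by Tmem63a, a link that is background knowledge and not in the labels. The labels do not say how the allele was made or which exons it affects, or whether the mice were littermates.

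Macrophages are phagocytes that live in every organ, take up dead cells and microbes, and depend on the growth factor receptor encoded by Csf1r and on the transcription factor PU.1, encoded by Spi1. In the pancreas they lie between the acini and inside the islets. They secrete the first complement component C1q, carry scavenger and lectin receptors, degrade what they ingest with lysosomal enzymes, and call in further leukocytes with chemokines. Several of the listed genes, among them Ptprc, Cd53, Cd52, Coro1a, Lcp1 and Arhgdib, are also used by lymphocytes, and others, among them Apoe, Axl, Lgals3 and Cyba, by cells outside the blood lineage.

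Most of these genes stood above their wild-type level in OCaR1-/- pancreas. By the Cuffdiff test of the authors' deposited table, at q under 0.05, 27 of the 42 were called higher and 0 lower, against 4.20% of all tested genes called higher and 3.35% called lower (7.54% in either direction). No member was lower at an unadjusted p under 0.05, and 34 of the 42 had such a p, as had 2006 of all 11478 tested genes. The median log2 fold change, knockout over wild type, was 0.86 (1.81-fold) over the 42 members and -0.03 over all tested genes. In all, 41 members had the larger FPKM value in the knockout, and Irf8 was the exception. For 11 of these 41 the direction was fixed by the level at which rows enter the table, as described below. They are part of the count of 27 of 42 and of the median, and values without them are also given below. The levels are FPKM (fragments scaled by transcript length and by sequencing depth), which can be compared between genes. The authors give 1 such value per genotype, which joins the 3 mice, so no mouse can be shown on its own and no spread between mice stands beside a level. The authors' deposited table carries the only test of a difference, through its q-value, and "called" and "rose" mean q under 0.05 there. How that test modelled the variation among mice is not given in the sources used here. Of a pair of levels joined by "and" without a genotype, the first is the knockout; "to" leads from wild type to knockout. With 1 value for the whole organ, more cells of a type and more RNA per cell cannot be told apart.

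The genes were scarce. Wild-type levels of the members ran from 0.103 FPKM (Tlr13) to 98.8 FPKM (Apoe) with a median of 2.31 FPKM, and knockout levels from 1.19 FPKM (Fyb) to 153 FPKM (Apoe) with a median of 3.53 FPKM. Of all FPKM summed over the table, the members took 0.0616% in knockout and 0.0381% in wild-type pancreas. Their summed level was 418 FPKM against 250 FPKM, 1.67-fold higher, and 1.75-fold higher with Apoe left out. Every row of the table reaches 1 FPKM in at least 1 genotype. For 11 members (Tlr13, Ccl24, Trem2, Fyb, Lyz1, Mpeg1, Itgam, Emr1, Ms4a7, Ptprc and Cd53) the wild-type level was under 1 FPKM, so that they entered the table only through the knockout and had to be higher there; 10 of them were called. Of all 470 tested genes with a wild-type level under 1 FPKM, 103 were called higher (21.9%) and 0 lower. Of the 31 members at 1 FPKM or more in both genotypes, 17 were called higher and 0 lower, against 3.52% of all such genes called higher, and their median log2 fold change was 0.73. Called members were found at all levels, 12 of 22 with a wild-type level from 1 to 5 FPKM and 5 of 9 above it. Of all tested genes at those levels, 3.90% and 2.99% were called higher.

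**Figure D1:**
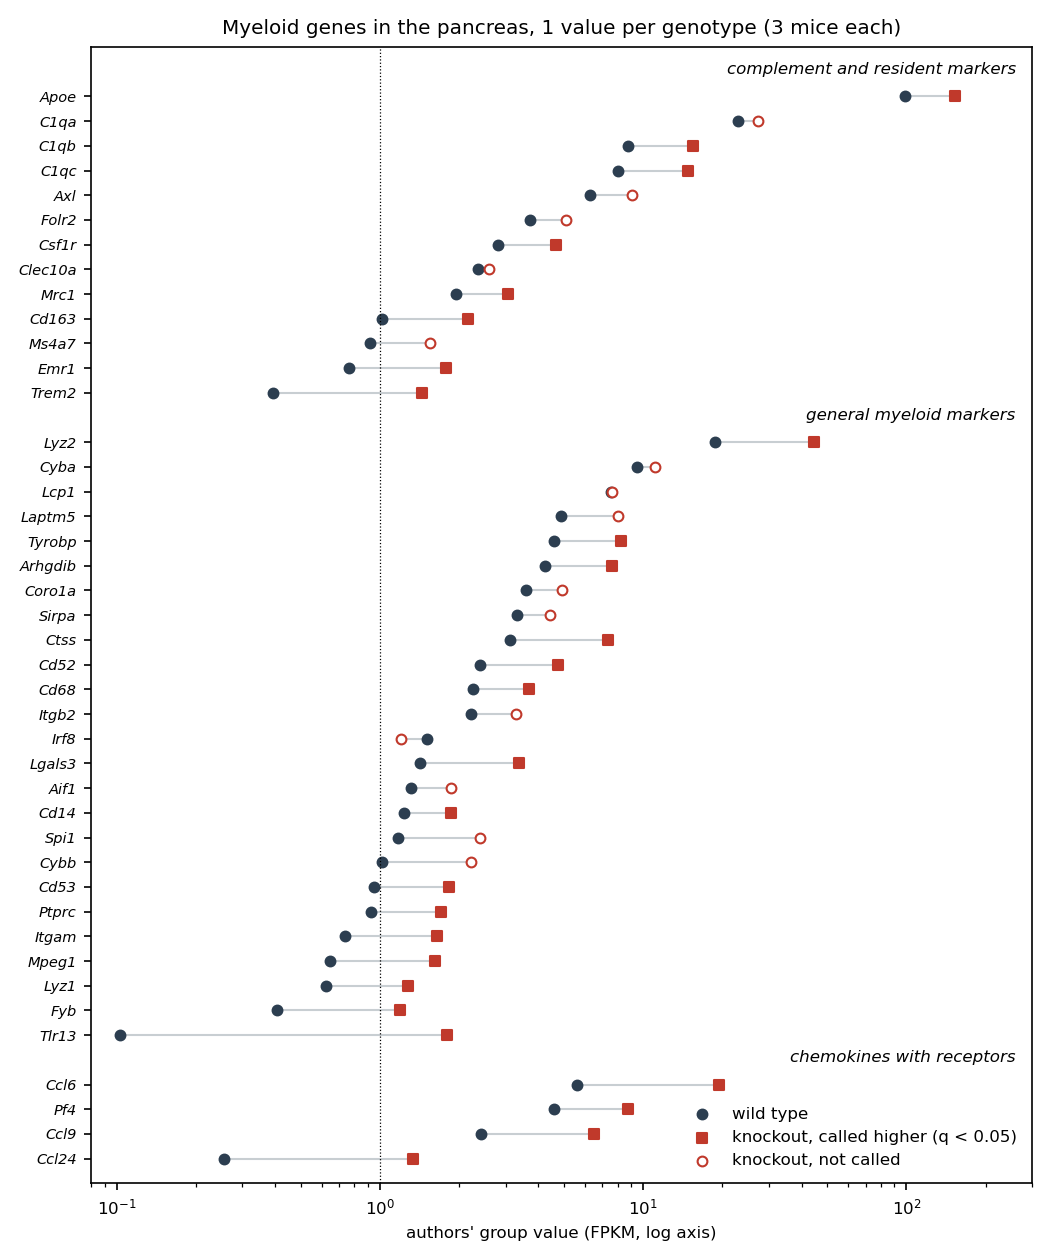
Levels of the 42 tested myeloid genes in FPKM on a log axis, with the authors' wild-type value as a dark dot and the knockout value in red (filled square where called higher, open circle where not called), in the 3 larger groups. The dotted line marks 1 FPKM. Of 42 knockout values, 41 lie to the right of the wild-type value. For the 11 members with a wild-type value left of the line this direction was fixed in advance.

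**Figure D2:**
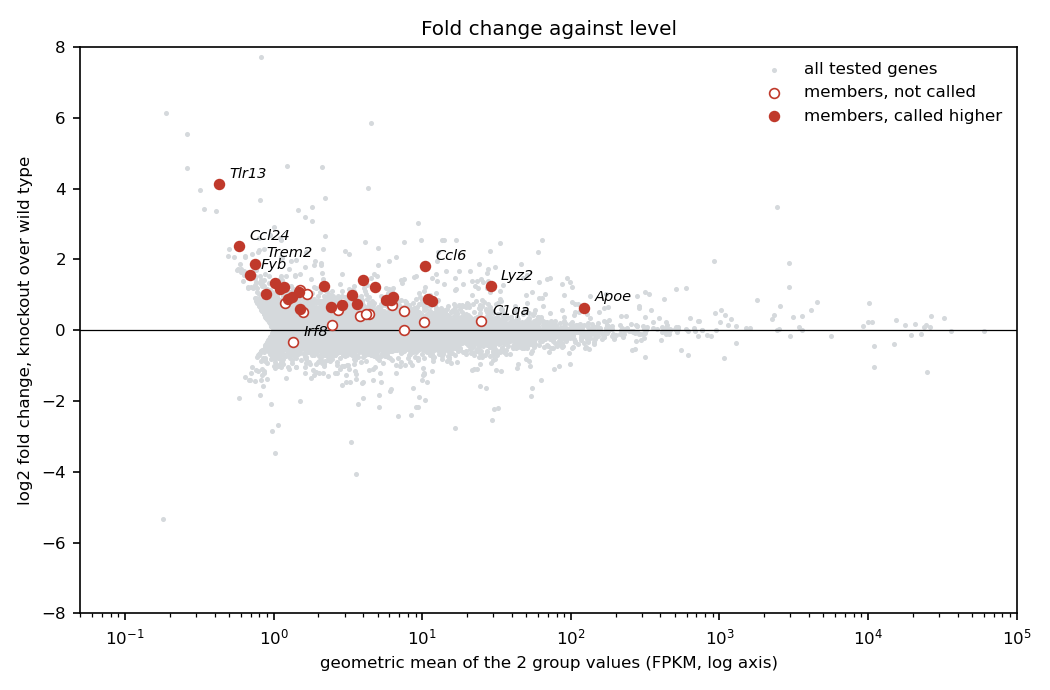
Log2 fold change, knockout over wild type, against the geometric mean of both group values in FPKM (log axis) for all tested genes with a value above 0 in both genotypes (grey) and for the myeloid members (red, filled where called higher). The members lie above 0 along the whole range of their levels, with Tlr13 highest and Irf8 as the one below 0; the wedge on the left is the limit of 1 FPKM.

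The whole-organ data bear on these values in a few ways. Tmem63a itself stood at 4.91 FPKM in knockout and 18.3 FPKM in wild-type pancreas (q = 0.00152 in the authors' deposited table). Genes of digestive enzymes and granule cargo (30 rows) took 56.8% of the summed FPKM in the knockout and 61.2% in wild type, and acinar genes were the most abundant of the marker lists. When both genotypes were scaled to the same total without those genes, every log2 fold change fell by 0.20. The smallest log2 fold change of a called member was 0.59 (Cd14), so no called member could change sign on that scale, and the median of the members became 0.65, while Clec10a and Lcp1, neither of them called, turned to -0.07 and -0.20.

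C1q, which starts the classical complement pathway, is built from equal numbers of A, B and C chains encoded by C1qa, C1qb and C1qc. The genes lie in a row on GRCm38 chromosome 4 in the order C1qb (136880129 to 136886187), C1qc (136889804 to 136893065) and C1qa (136895917 to 136898803), with 3616 and 2851 bases between them, all on the minus strand. C1qb rose from 8.73 FPKM in wild type to 15.5 FPKM in the knockout, 1.78-fold. C1qc rose from 8.05 to 14.8 FPKM, 1.83-fold, both with q = 0.00152 in the authors' deposited table. C1qa, the most abundant of the trio, had 22.9 FPKM in wild-type and 27.3 FPKM in knockout pancreas and was not called (1.19-fold, q = 0.167 in the authors' deposited table). C1qa therefore stood at 2.63 times the C1qb level in wild type and at 1.76 times in the knockout, whereas the ratio of C1qb to C1qc was 1.08 and 1.05. Whether the 3 genes differed in their response was not tested. None of their 50-base transcript windows is shared with another gene of GENCODE release M21.

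Among the scavenger and lectin receptors, 2 of 4 were called. Cd163, the haemoglobin scavenger receptor of tissue macrophages, rose 2.13-fold (1.01 to 2.15 FPKM). Mrc1, the mannose receptor, rose 1.57-fold (1.95 to 3.06 FPKM). Folr2, a folate receptor of resident macrophages, had a level of 5.11 FPKM in the knockout, against 3.73 FPKM in wild-type pancreas, and lay just outside the threshold (q = 0.0551 in the authors' deposited table). For Clec10a, a galactose-type lectin, the values were 2.60 and 2.37 FPKM (q = 0.926 in the authors' deposited table), the second smallest difference in size of log2 fold change among the members after Lcp1.

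Of the surface markers and growth factor receptor, 2 of 3 were called. Emr1, now named Adgre1, encodes F4/80, the classical mouse macrophage antigen, and rose 2.33-fold (0.762 to 1.78 FPKM). Csf1r rose 1.66-fold, from 2.81 to 4.66 FPKM (q = 0.00283 in the authors' deposited table), in an interval shared with 2 other rows, where reads of neighbouring genes could be divided between them. Ms4a7, a membrane protein of macrophages, had a level of 1.55 FPKM in the knockout, against 0.913 FPKM in wild-type pancreas, without a call (1.70-fold, q = 0.0920 in the authors' deposited table).

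Of the 3 tested genes of dead-cell uptake and lipid handling, 2 were called, Apoe and Trem2. Apoe, which encodes the lipid carrier apolipoprotein E and is expressed by many cell types, rose 1.55-fold (98.8 to 153 FPKM). Trem2, a lipid-sensing receptor of macrophages, rose 3.69-fold, the third largest fold among the members (0.392 to 1.45 FPKM, q = 0.00723 in the authors' deposited table). Tyrobp, its signalling adaptor, rose 1.79-fold (4.59 to 8.22 FPKM). Axl, a receptor tyrosine kinase that binds dying cells, had a level of 9.08 FPKM in the knockout, against 6.28 FPKM in wild-type pancreas, and was not called (1.45-fold, q = 0.347 in the authors' deposited table).

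All 6 lysosomal and antibacterial genes rose, the only role group of more than 2 genes besides the chemokines in which each tested gene was called in the authors' deposited table. Their median log2 fold change was 1.24. Lyz2, the macrophage lysozyme that digests bacterial walls, went from 18.7 to 44.4 FPKM (2.38-fold), the second largest gain in FPKM after Apoe. Lgals3, which encodes the sugar-binding protein galectin-3, rose 2.39-fold (1.42 to 3.38 FPKM). Mpeg1, a pore-forming protein of phagosomes, rose 2.51-fold (0.646 to 1.62 FPKM). Ctss, the lysosomal protease cathepsin S, rose 2.35-fold (3.13 to 7.34 FPKM), and Cd68, a lysosomal membrane glycoprotein, 1.63-fold (2.25 to 3.67 FPKM, q = 0.0107 in the authors' deposited table). Lyz1, the lysozyme of intestinal Paneth cells in the mouse, rose 2.05-fold (0.621 to 1.27 FPKM, q = 0.00404 in the authors' deposited table). Over all 6 genes the folds ran from 1.63 to 2.51, and Lyz1 and Mpeg1 were among the members with a wild-type level under 1 FPKM.

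The lysozyme genes lie side by side on chromosome 10, and their coding sequences of 444 bases (without the stop codon) are identical at 422 positions (95.0%). Of 395 coding windows of 50 bases, the read length per the labels, 80 are the same in both genes, and of all transcript windows 15.4% of Lyz2 and 16.1% of Lyz1 occur in the other. The level of Lyz2 was 30.1 times that of Lyz1 in wild type and 34.9 times in the knockout. The sources used here do not say how reads that fit both genes were placed, so the Lyz1 value is uncertain. The second exons are printed here because they carry both the differences that separate the genes and a stretch that cannot; they were read from GENCODE M21 transcripts (GRCm38), 5′ to 3′ on the coding strand, with the 6 positions that differ in capitals.
Lyz2, exon 2, chr10:117280641-117280805, minus strand: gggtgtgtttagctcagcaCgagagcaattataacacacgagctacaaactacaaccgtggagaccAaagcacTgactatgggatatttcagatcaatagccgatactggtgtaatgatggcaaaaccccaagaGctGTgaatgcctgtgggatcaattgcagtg
Lyz1, exon 2, chr10:117291029-117291193, minus strand: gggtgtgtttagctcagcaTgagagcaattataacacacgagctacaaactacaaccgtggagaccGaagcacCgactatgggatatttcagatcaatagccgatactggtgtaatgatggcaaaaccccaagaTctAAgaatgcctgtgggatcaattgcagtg
The longest identical run of the whole coding sequences is 118 bases and is not contained in the printed exon, which holds 6 of their 22 differences.

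Tlr13, an endosomal receptor for bacterial ribosomal RNA, had the largest fold of all members. It stood at 0.103 FPKM in wild type and 1.79 FPKM in the knockout, 17.4-fold higher, the eighth largest ratio among all tested genes with a value in both genotypes. The gene lies on GRCm38 chromosome X, 106143204 to 106160493 (plus strand), has no 50-base transcript window in common with another gene and shares its interval with no other row. Its gain of 1.69 FPKM was smaller than that of Ctss (4.21 FPKM) or Tyrobp (3.64 FPKM), and its wild-type level was the lowest of the 42. With a pseudocount of 0.5 FPKM added to both values its log2 fold change went from 4.12 to 1.93. Cd14, a co-receptor for bacterial lipopolysaccharide, rose 1.51-fold (1.23 to 1.86 FPKM, q = 0.0236 in the authors' deposited table).

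Neither tested gene of the superoxide-producing NADPH oxidase was called. Cybb, its catalytic subunit, had a level of 2.22 FPKM in the knockout, against 1.02 FPKM in wild-type pancreas (2.18-fold, q = 0.104 in the authors' deposited table). Cyba, the partner subunit, which is also made outside the blood lineage, had 11.1 and 9.49 FPKM (q = 0.972 in the authors' deposited table). Of the integrin chains that pair into the complement receptor of phagocytes, Itgam, the alpha chain CD11b, was called with q = 0.0491 in the authors' deposited table (2.24-fold, 0.735 to 1.65 FPKM). Itgb2, the beta chain that other leukocyte integrins share, was not (3.29 and 2.22 FPKM, q = 0.378 in the authors' deposited table). In GENCODE M21 66.3% of the 50-base windows of Itgam also belong to the overlapping gene Gm49368, and 52.6% of those of Folr2 to Gm10602, so the values of both genes depend on an annotation that is not given in the sources used here.

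Of 7 tested adaptors and surface proteins, 5 rose. Besides Tyrobp these were Fyb, an adaptor of integrin signalling (2.92-fold, 0.406 to 1.19 FPKM, q = 0.00283 in the authors' deposited table, in an interval shared with 1 other row), and Cd52, a small surface glycoprotein (1.98-fold, 2.39 to 4.73 FPKM). Cd52 stood closest to the threshold of the called members, with q = 0.0495 in the authors' deposited table. The tetraspanin Cd53 rose 1.92-fold (0.952 to 1.83 FPKM). Ptprc, the pan-leukocyte phosphatase CD45, rose 1.84-fold (0.922 to 1.70 FPKM, q = 0.0107 in the authors' deposited table). The lysosomal membrane protein Laptm5 had 8.06 FPKM (knockout) and 4.87 FPKM (wild type) without a call (1.65-fold, q = 0.128 in the authors' deposited table). Sirpa, an inhibitory receptor that reads CD47 on other cells, had 4.42 and 3.32 FPKM (q = 0.457 in the authors' deposited table).

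Neither of the 2 transcription factors was called, and their log2 fold changes had opposite signs. Spi1 had a level of 2.39 FPKM in the knockout, against 1.17 FPKM in wild-type pancreas (2.05-fold, q = 0.0968 in the authors' deposited table). Irf8, which directs monocyte and dendritic cell fate, had 1.198 and 1.505 FPKM (q = 0.917 in the authors' deposited table), the one member with the lower value in the knockout. Its row shares 1 interval of 4435365 bases on chromosome 8 with 58 further rows, Cyba among them, far longer than the gene itself, so the values of Irf8 and Cyba are uncertain. Of the 4 cytoskeletal genes of leukocytes only Arhgdib, a regulator of small GTPases, was called (1.79-fold, 4.25 to 7.62 FPKM). The actin-binding Coro1a (4.92 and 3.58 FPKM, q = 0.265) and Aif1, the marker IBA1 of macrophages (1.86 and 1.31 FPKM, q = 0.480 in the authors' deposited table), were not. Lcp1, the actin bundler L-plastin, had a level of 7.59 FPKM in the knockout, against 7.54 FPKM in wild-type pancreas (q = 0.995 in the authors' deposited table), the smallest difference on the log2 scale among the 42.

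All 4 chemokine genes rose, with a median log2 fold change of 1.61, and of 1.42 for the 3 at 1 FPKM or more in both genotypes. Among the roles only the 2 pattern receptors had a higher median (2.36). That median lies between Tlr13 (4.12) and Cd14 (0.59), and the direction of Tlr13 was fixed by its wild-type level under 1 FPKM. Ccl6, a CC chemokine of macrophages, went from 5.59 to 19.5 FPKM (3.48-fold), the third largest gain in FPKM among the members. Ccl9, a CC chemokine gene near it on chromosome 11, rose 2.67-fold (2.43 to 6.49 FPKM, q = 0.00404 in the authors' deposited table). Ccl24, an attractant of eosinophils known from alternatively activated macrophages, rose 5.21-fold from a low level (0.256 to 1.33 FPKM). Pf4, which platelets and some macrophages make, rose 1.91-fold (4.59 to 8.76 FPKM); of 8 platelet markers none had a tested row. The interval of the Ccl6 row (41638 bases) is longer than the gene in GENCODE M21.

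**Figure D3:**
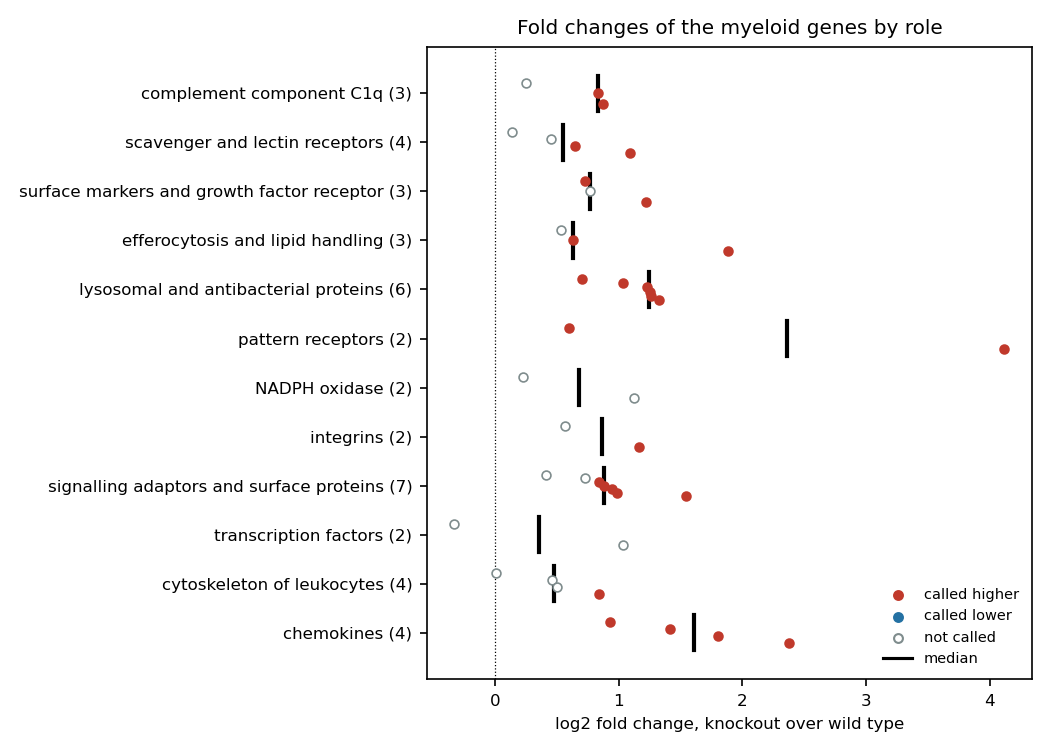
Log2 fold changes, knockout over wild type, of the 42 members by role, with the number of tested genes in brackets (red, called higher; open, not called; black bar, median of the role). The chemokines and the lysosomal and antibacterial genes are called throughout, the 2 oxidase genes and the 2 transcription factors not at all.

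By the 3 larger groups, the median log2 fold change was 0.73 for complement and resident markers (8 of 13 called higher), 0.88 for general myeloid markers (15 of 25) and 1.61 for chemokines (4 of 4), with 0 called lower in each by Cuffdiff. For members at 1 FPKM or more in both genotypes the medians were 0.64 (6 of 10 called), 0.71 (8 of 18) and 1.42 (3 of 3). The order of the groups was the same in both, but the ranges overlapped widely (0.13 to 1.88, -0.33 to 4.12 and 0.93 to 2.38 on the log2 scale) and the differences between the groups were not tested. Of the 27 called members 17 carry the smallest p in the table, 5e-05, a value that 394 genes of the table have, so the authors' p does not rank them. Their q in the authors' deposited table was 0.00152, and it applies to each called member described without a q.

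The promoters were searched for the core of the PU.1 site, GAGGAA on either strand, in the 250 bases before each RefSeq start (GRCm38.p6). Of 31 tested members with a window that could be used, 17 held it in at least 1 window, 14 of 21 called and 3 of 10 not called. The share of all genes with a match was not computed, and genes with several windows have more places for one. The difference between called and not called members was not tested. By window it occurred in 18 of 41 (43.9%), against 23.3% of all 32851 windows of the table. The C/EBP pattern TTGCNNAA on either strand was found in 3 of 41 windows (7.32%), against 9.56% of all. A match is a string of letters and no binding was measured. The 4 windows below belong to the called members of largest fold among the 8 that hold a match and lie outside the annotated gene. Of these, Trem2, Itgam and Cd53 had a wild-type level under 1 FPKM, so the direction of their fold was fixed in advance. The windows run 5′ to 3′ on the strand of the gene and end at the base before the start. Capitals mark GAGGAA or its reverse complement.
Trem2, chr17:48346151-48346400, plus strand: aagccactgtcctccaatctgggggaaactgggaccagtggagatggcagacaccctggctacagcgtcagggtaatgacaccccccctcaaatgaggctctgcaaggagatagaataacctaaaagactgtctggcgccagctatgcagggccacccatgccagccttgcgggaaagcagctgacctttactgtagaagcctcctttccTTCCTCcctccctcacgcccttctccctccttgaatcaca
Ctss, chr3:95526536-95526785, plus strand: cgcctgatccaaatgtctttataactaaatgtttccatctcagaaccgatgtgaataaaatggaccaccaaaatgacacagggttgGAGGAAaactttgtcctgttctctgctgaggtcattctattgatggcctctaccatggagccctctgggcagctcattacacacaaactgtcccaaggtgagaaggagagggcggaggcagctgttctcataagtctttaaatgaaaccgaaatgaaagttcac
Itgam, chr7:128062390-128062639, plus strand: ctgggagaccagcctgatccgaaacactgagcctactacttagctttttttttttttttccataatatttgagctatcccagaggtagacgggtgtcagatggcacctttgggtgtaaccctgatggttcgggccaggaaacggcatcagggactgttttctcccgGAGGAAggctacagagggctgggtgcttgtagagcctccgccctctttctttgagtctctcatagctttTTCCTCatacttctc
Cd53, chr3:106790150-106790399, minus strand: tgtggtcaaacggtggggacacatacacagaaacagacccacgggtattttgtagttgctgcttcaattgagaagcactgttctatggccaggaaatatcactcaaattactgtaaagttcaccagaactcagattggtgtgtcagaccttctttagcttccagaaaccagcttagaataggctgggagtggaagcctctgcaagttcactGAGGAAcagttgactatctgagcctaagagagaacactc
The match ends 34 bases before the start in Trem2, 158 in Ctss and 33 in Cd53, and in Itgam the pair of matches ends 78 and 9 bases before it.

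Related genes outside the list included further called ones, and their counts are to be read beside those of all tested genes. Of all 11478 tested genes, 482 were called higher, 384 were called lower and 2006 had an unadjusted p under 0.05. By the authors' deposited table, 1 of 6 tested Fc receptor and oxidase partner genes was higher and 0 lower, with 5 of the 6 at an unadjusted p under 0.05 (median log2 fold change 0.66); the call was Fcgr3, a receptor for immunoglobulin G (2.18 FPKM in the knockout, 1.36 FPKM in wild type). Of 13 further complement genes 3 were called higher and 0 lower, with 5 at such a p (median 0.50). Among these were Serping1, the C1 inhibitor (17.3 and 11.6 FPKM), and the C1 protease gene C1ra (1.89 and 1.33 FPKM), both of which stromal cells also make. C3, the central complement protein, had 60.6 and 39.7 FPKM without a call (1.53-fold, q = 0.381 in the authors' deposited table).

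Of 8 genes of myeloid growth factors and kinases, 2 rose and 0 fell, with 2 at an unadjusted p under 0.05 (median log2 fold change 0.09). Such a p was found for 2006 of all 11478 tested genes. Csf1, a ligand of the receptor encoded by Csf1r, went from 1.59 to 2.83 FPKM (q = 0.00283 in the authors' deposited table). Csf2ra, the alpha chain of the receptor for the growth factor GM-CSF, went from 1.27 to 2.30 FPKM. Il34, the other ligand, had a level of 2.79 FPKM in the knockout, against 3.37 FPKM in wild-type pancreas (q = 0.838 in the authors' deposited table). Of 11 genes of the Toll-like receptor pathway other than the members, 2 rose and 0 fell, with 2 at such a p (median 0.06): Ly86, which encodes the partner MD-1 of a B cell and macrophage receptor (1.07 to 2.04 FPKM), and Unc93b1, which escorts nucleic acid sensing Toll-like receptors such as Tlr13 to endosomes (4.42 to 6.30 FPKM).

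By the authors' deposited table, 4 of 13 further chemokine genes and receptors were higher and 0 lower, with 8 at an unadjusted p under 0.05 (median log2 fold change 0.54). Among them were Cxcl13, which draws B cells into lymphoid tissue (3.72 to 7.34 FPKM), Cxcl16 (0.785 to 1.44 FPKM) and the scavenging receptor gene Ackr3 (1.25 to 1.97 FPKM). Of 9 genes of activation state and cytokines 3 rose and 0 fell, with 4 at such a p (median 0.57). Retnla, a secreted protein of alternatively activated macrophages that fat tissue also makes, went from 12.6 to 45.9 FPKM, and Lyve1, a hyaluronan receptor of lymphatic vessels and some macrophages, from 2.95 to 5.27 FPKM. Cd36, a fatty acid transporter of fat cells, vessels and macrophages, went from 4.74 to 8.41 FPKM. Of 11 further transcription factors used by myeloid cells 1 rose and 1 fell, Id2 (14.1 to 9.90 FPKM), with 3 at such a p and a median of 0.20.

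Markers of several other cell types were also called, some lists in the direction of the myeloid genes and others not. Over all tested genes 4.2% were called higher and 3.35% lower. Among other blood cells, 2 neutrophil markers of 13 had a tested row, S100a8 (3.09 FPKM in the knockout, 1.83 FPKM in wild type) and S100a9 (2.05 and 1.23 FPKM), and neither was called (q = 0.196 and 0.138 in the authors' deposited table). The B and plasma cell list had 3 of 8 called higher and 1 lower (summed level 244 and 182 FPKM, median 0.62). Igkc (38.1 to 98.7 FPKM), Ighm (14.7 to 34.9 FPKM) and Igj rose, and Derl3 fell (118 to 95.2 FPKM). Derl3 had the highest wild-type level of the list and so weighs most on the wild-type sum. Which cells its value came from was not tested. Only 2 of 19 T and NK cell markers had a tested row, of which Thy1, also a gene of stromal cells, was called higher. Tcf7, a T cell transcription factor, had 0.821 and 1.61 FPKM without a call (log2 fold change -0.97, q = 0.670 by the authors' deposited table), in an interval shared with other rows. Red cell genes had 7 of 7 values above wild type, with 2 called higher and 0 lower (452 and 387 FPKM, median 0.35). Of 5 tested proliferation genes the table called 0, and 0 had an unadjusted p under 0.05 (27.8 and 23.4 FPKM, median 0.22). The dendritic cell list had 1 tested gene, Zbtb46, and the mast cell and eosinophil list 1, Kit, neither called. Fat cell genes were called higher in 8 of 10 (summed level 200 and 91.0 FPKM, median 1.03) and islet genes in 12 of 15 (4139 and 2580 FPKM, median 0.64). Fibroblast genes were called higher in 7 of 12 (497 and 382 FPKM, median 0.39), endothelial genes in 5 of 13 (112 and 86.2 FPKM, median 0.38) and duct genes in 1 of 9 (389 and 385 FPKM, median 0.10), with 0 lower in each. Smooth muscle genes were called lower in 5 of 7 (28.6 and 65.6 FPKM) and acinar genes in 3 of 13 (201854 and 221606 FPKM), with 0 higher in each. No tested marker of these lists was listed at 0. The part of these cells in the values of the shared genes, such as Apoe, Retnla, Cd36 or Serping1, was not tested. Without the members also made by non-blood cells or platelets, 21 of 33 were called higher, and without those shared with lymphocytes 22 of 32.

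**Figure D4:**
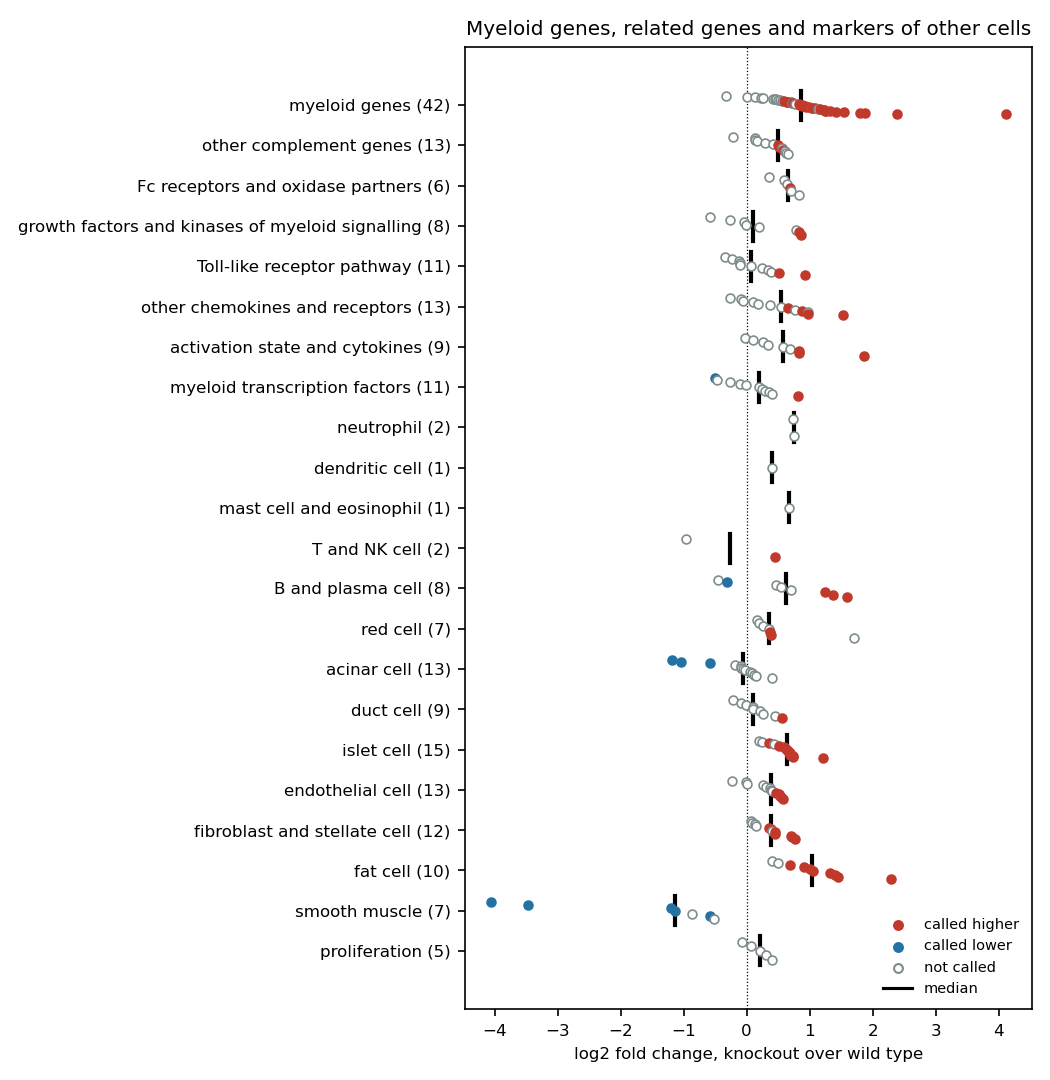
Log2 fold changes, knockout over wild type, of the myeloid members, the related genes and the markers of other cell types, with the number of tested genes in brackets (red, called higher; blue, called lower; open, not called; black bar, median). The myeloid members have a median of 0.86, fat cell genes 1.03, islet genes 0.64, acinar genes -0.06 and smooth muscle genes -1.14.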

How the data were processed

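RNA of the pancreas was sequenced in 6 mice as single reads of 50 bases after poly(A) selection, per the labels' protocols. STAR 2.5.1b, Cufflinks 2.2.1, Cuffdiff and GRCm38 were used, per the submitters' processing notes. The sources used here give no annotation release, strand use, handling of multiply mapped reads, scaling or dispersion setting. The deposited table gives 1 FPKM value per genotype, made by the authors from 3 libraries, so depth is unknown and no interval can be given. It also holds the authors' deposited p-values and q-values of the Cuffdiff test across all genes, and q under 0.05 was the call. Columns of single samples numbered 0, and 538 rows not tested were left out. The labels name separate mice.

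Fold changes were recomputed as knockout over wild type from the FPKM values, with no pseudocount, in Python 3.11.15 with pandas 2.3.3; the deposited fold change column was not used here. A value under 0.01 FPKM counted as listed at 0. Intervals were shifted to start at 1. All 42 members were found in GENCODE M21 by identifier and 23 had the same interval there. Promoter windows came from RefSeq (GRCm38.p6). Windows of members on chromosome 18 were not used, which left out the called members Csf1r and Cd14. The 32851 windows of the comparison were not filtered in this way. The calculation was tested on simulated data. Named genes are all tested members, Tmem63a and, of each related or marker list, up to 4 called genes with the smallest p or, with none called, the gene with the smallest p; lists of red cells, proliferation and cells outside the blood are given as counts. Some called genes of the related lists are not reported here by name. C3, Il34, S100a8 and S100a9 together, Tcf7 and Gm genes named beside a member were chosen after their values were seen. Members and lists were chosen with earlier results of these data known. Alternatives changed the q threshold, scaling, pseudocount, level filter and member set.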

Additional observations from a re-analysis of the deposited data

How the results depend on the processing

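No paired analysis was possible because the deposited values are 1 per genotype, and for the same reason no mouse could be left out. The count of members called higher was 22 at q under 0.01 and 27 with q recomputed over all tested genes. It was 25 without members of a shared interval, 21 without those made by non-blood cells or platelets and 22 without those shared with lymphocytes. These counts lie within 1.5 times of 27. Apart from the recomputed q, each of these settings keeps a part of the same calls, so its count could only fall. Rescaling without digestive enzymes moves every log2 fold change alike and keeps the deposited q, so it could not change the count. The number called higher was 10 of 16 at 5 FPKM or more in either genotype, 14 for changes of at least 1 on the log2 scale, and 17 of 31 at 1 FPKM or more in both genotypes, an alternative chosen after seeing the data; each drops members by construction. The count of members called lower was 0 in every setting, which these settings could not change. Irf8, the one member with the lower deposited value in the knockout, had an unadjusted Cuffdiff p of 0.650. A recomputed q is never below its p.

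Medians of the log2 fold change stayed above 0 in every setting run. With a pseudocount of 0.5 FPKM they were 0.73 for the members, 0.68 for general myeloid markers and 1.27 for chemokines. After rescaling without digestive enzymes they were 0.65 for the members, 0.53 for complement and resident markers, 0.68 for general myeloid markers and 1.40 for chemokines. At 5 FPKM or more in either genotype, complement and resident markers had 0.58 and chemokines 1.42, and at 1 FPKM or more in both genotypes the members had 0.73, general myeloid markers 0.71 and chemokines 1.42. Without members shared with lymphocytes general myeloid markers had 1.04, and without those of non-blood cells or platelets chemokines had 1.80. Rescaling turned Clec10a to -0.069 and Lcp1 to -0.20, by construction a shift of 0.20. Levels near 1 FPKM limit the fold changes, and unknown depth limits all of them.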
